A study of Mus musculus with 11 samples.

Results

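The Hox genes form 4 chromosomal clusters, Hoxa, Hoxb, Hoxc and Hoxd, and their transcripts were followed here at 3 ages after birth in GFP-positive cells sorted from Pax3GFP/+ mouse muscle. Members were taken by gene symbol, as every gene named Hox with the letter a, b, c or d and a number that an array probe set reports alone. Of the 39 mouse Hox genes 33 were measured this way, among 18193 genes on the arrays. The Hoxa cluster had 9 of 11 genes measured, Hoxb 9 of 10, Hoxc 7 of 9 and Hoxd 8 of 9. The other 6 were not analysed here.

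The samples were 4 at postnatal day 1 (P1), 4 at day 12 (P12) and 3 at day 28 (P28), each a separate biological replicate by its label and each hybridised to an array of its own. All carried the same genotype, Pax3GFP/+, on a C57BL/6J background: GFP is expressed from a Pax3 allele, so every group was heterozygous for that allele and no array comes from a mouse without it. At P1 and P12 the cells came from trunk muscles labelled as containing proliferating satellite cells, and at P28 from abdominal, pectoral and intercostal muscle labelled as containing satellite cells. GFP-positive, propidium iodide-negative cells were collected by flow cytometry with no further marker. Age and muscle therefore change together at P28 and cannot be told apart. The number of animals behind a sample is not in the labels.

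Hox genes encode homeodomain transcription factors that set position along the head-to-tail axis of the embryo and along the limb. Within a cluster the genes lie in numerical order, and genes of the same number in different clusters are paralogs. Low-numbered (3′) genes are expressed earlier and farther towards the head, and high-numbered (5′) genes later and farther towards the tail. Muscle and connective tissue cells keep a region-specific set of Hox transcripts after birth. Satellite cells rebuild skeletal muscle as its resident stem cells, and Pax3 is on in those of some muscles, trunk muscles among them.

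Values are log2 signals, so a difference of 1 is a doubling. Array medians over all probe sets were between 5.50 and 5.58, and upper quartiles between 7.36 and 7.66. Correlations between arrays of one age were 0.983 to 0.995, against 0.974 to 0.987 between P1 and P12 and 0.936 to 0.965 between P28 and the younger ages. The log2 difference between the 3′ and 5′ Gapdh control probe sets, a sign of RNA integrity and of labelling length, was 1.32 to 3.05 at P1 and P12 and 0.79 to 0.99 at P28. In the younger groups it was 2.59 or more in replicates 1 and 2 (called array set 1 below) and 1.69 or less in replicates 3 and 4 (array set 2). Xist, the RNA of the inactive X chromosome of female cells, was at 11.29 on P1 replicate 1, at 5.82 to 5.96 on the other P1 arrays and at 10.59 or more on all P12 and P28 arrays. The labels give no sex, and comparisons with P1 may therefore also differ in sex, whose part in the Hox values was not tested. The internal sample names of the P28 arrays begin with the same age code as those of P1 but have another suffix, while their titles, ages and muscles all give P28.

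All 10 satellite and myogenic markers examined exceeded their array median on at least 1 array, and their mean level was 9.17 to 9.78 at P1, 9.63 to 9.95 at P12 and 10.26 to 10.40 at P28. At P28 against P1 4 of the 10 rose, Chrdl2 by 3.45, Des by 1.84, Calcr by 1.35 and Cdh15 by 0.38. The other 6 did not pass, Pax7 (-0.03) among them. From P1 to P12 2 of the 10 rose, Calcr and Chrdl2. Markers of other cells also differed, at P28 and in part at P12. From P1 to P12 3 of 13 fibroblast and 2 of 13 blood and immune markers fell. Of 8 smooth muscle and pericyte markers 2 rose and 1 fell, and no endothelial, Schwann cell or melanocyte marker passed. Over all genes 4.53% rose and 2.04% fell from P1 to P12. At P28 all 10 endothelial markers rose against both younger ages. Their mean level was 5.55 to 6.36 at P1, 5.91 to 6.57 at P12 and 7.74 to 8.46 at P28. Over 13 blood and immune markers the mean was 5.71 to 6.12 at P1, 5.23 to 5.63 at P12 and 6.98 to 7.30 at P28. Of the 13, 5 rose and 1 fell against P1, and 7 rose and 1 fell against P12. Over all genes 20.1% rose and 16.4% fell at P28 against P1, and 15.7% each against P12. For 13 fibroblast markers the mean was 8.45 to 8.81, 8.17 to 8.47 and 8.91 to 9.30. For 8 smooth muscle and pericyte markers it was 7.95 to 8.56, 8.08 to 8.53 and 9.17 to 9.37. The mean of 10 Schwann cell and melanocyte markers was 5.57 to 5.80, 5.49 to 5.55 and 5.40 to 5.59, with 1 higher and 1 lower at P28 against P1. The part of these cells in the Hox values was not tested. In such sorted populations fewer cells that transcribe a gene and less of its RNA per cell cannot be told apart.

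Signal was unequally spread over the clusters. Hoxc8 and Hoxd8 lay above the upper quartile on all 11 arrays, 14 genes lay in between, and 17 lay below the median of their array on every array and are called dim. The dim genes were Hoxa2, Hoxa4, Hoxa10, Hoxa11 and Hoxa13, Hoxb1, Hoxb6, Hoxb7, Hoxb9 and Hoxb13, Hoxc13, and Hoxd1, Hoxd3, Hoxd10, Hoxd11, Hoxd12 and Hoxd13. Of the 4 measured genes of paralog group 13, which pattern the tail end and the distal limb, all were dim. Probe sets differ in how strongly they respond, so these classes place a probe set against the array as a whole and do not order the genes by transcript number. Of the dim genes, Hoxd10 exceeded the brightest bacterial Trp control on 1 of 11 arrays, Hoxd1 on 1, Hoxb1 on 5, Hoxd11 on 8 and Hoxc13 on 10.

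Changes were tested with limma over all 11 arrays, and a gene is said to have risen or fallen where the Benjamini-Hochberg adjusted p over the 18193 genes was under 0.05. From P1 to P12 Hoxc8 rose and no other Hox gene passed, 1 of 33 or 3.03%, beside 6.57% of all genes (4.53% higher and 2.04% lower). Uncalled changes reached 0.66 in that comparison (Hoxc10). In simulated data 14.9% of 67 genes changed by 0.5 were called, with far fewer changed genes than passed here. At P28 against P12 1 gene (Hoxc10) rose and 5 fell (Hoxa4, Hoxa5, Hoxa11, Hoxb5 and Hoxc8), 18.2% of the 33 beside 31.4% of all genes (15.7% in each direction). At P28 against P1 3 rose (Hoxa7, Hoxc9 and Hoxc10) and 9 fell (Hoxa4, Hoxa5, Hoxa9, Hoxa11, Hoxb3, Hoxb4, Hoxb5, Hoxb9 and Hoxd3), 36.4% beside 36.6%. In that comparison 27.3% of Hox genes fell beside 16.4% of all genes, and 9.09% rose beside 20.1%. The F test of any difference among ages passed for 10 of 33 genes, beside 39.0% of all genes. Both P28 comparisons share their P28 arrays and are not independent of each other.

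The median Hox change was -0.04 from P1 to P12, -0.19 from P12 to P28 and -0.23 from P1 to P28, where the medians over all genes were 0.02, -0.03 and -0.02. Arrays did not overlap for 3 genes from P1 to P12, where 11.9% of all genes were apart in this way, for 10 at P28 against P12 (36.9% of all genes) and for 15 at P28 against P1 (41.6%). Calls are given by level as well. Of the 15 Hox genes above their array median on at least 3 arrays, 8 passed at P28 against P1 (53.3%), beside 47.0% of the 11905 such genes. Of the other 18 Hox genes 4 passed (22.2%), beside 17.0% of 6288 genes.

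**Figure D1:**
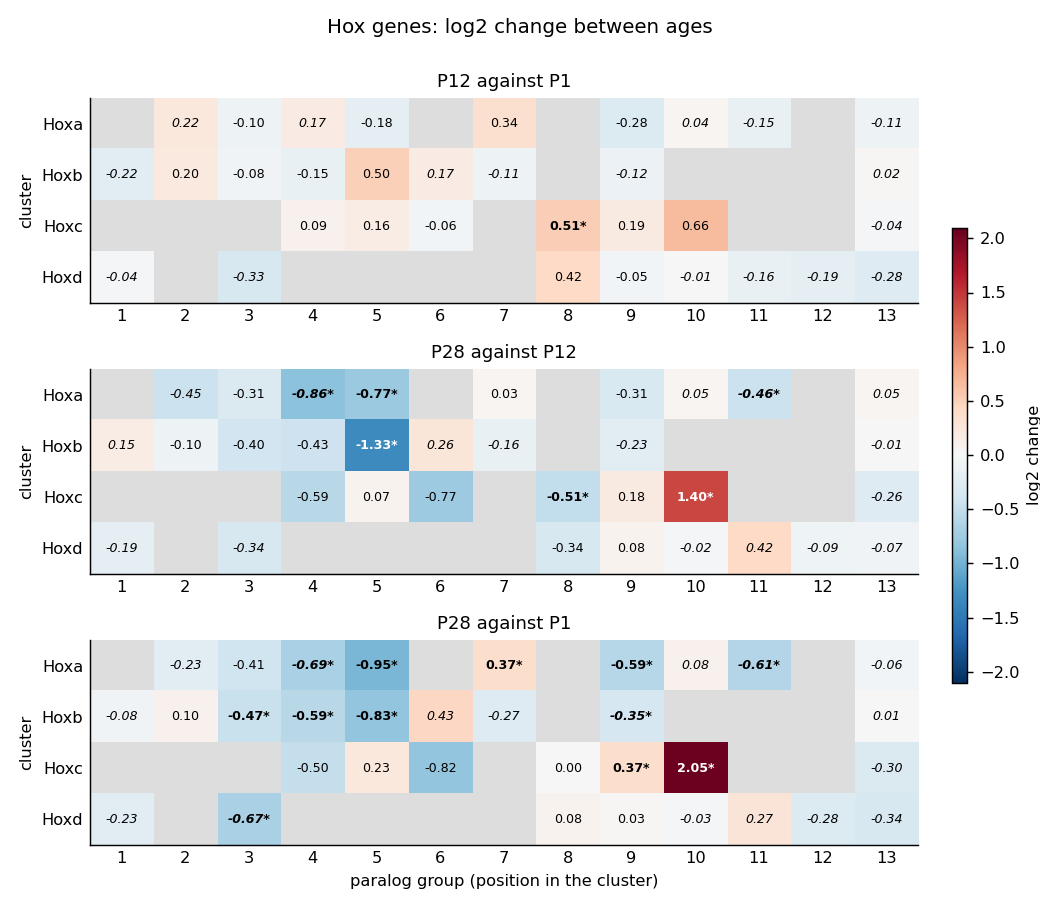
Log2 change of each measured Hox gene by cluster (rows) and paralog group (columns) between P1 and P12 (top), P12 and P28 (middle) and P1 and P28 (bottom). Bold with an asterisk marks an adjusted p under 0.05, italics mark dim genes, and grey marks positions with no measured gene. Hoxc10 is the darkest red at 2.05 in P28 against P1, and Hoxb5 the darkest blue at -1.33 in P28 against P12.

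In the Hoxa cluster, on chromosome 6, 1 of 9 genes rose and 4 fell at P28 against P1, with a median change of -0.41. Of the 9 changes 7 were below 0. Over all genes 20.1% rose, 16.4% fell and 52.0% of changes were below 0. Hoxa4, Hoxa5, Hoxa9 and Hoxa11 fell, and Hoxa7, which lies between Hoxa5 and Hoxa9, rose. The Hoxa7 call was lost in 8 of 21 alternatives, as given below. No upstream window was available for Hoxa4, so that fall has no sequence beside it. The 250 bases before the annotated start of Hoxa7, Hoxa5, Hoxa9 and Hoxa11 are shown, the gene that rose beside 3 that fell. They are from RefSeq (GRCm38.p6), on the minus strand and written 5′ to 3′, at chr6:52218574-52218823 for Hoxa7, chr6:52204588-52204837 for Hoxa5, chr6:52227371-52227620 for Hoxa9 and chr6:52245811-52246060 for Hoxa11. Capitals mark TTTATG, the core bound by Cdx factors, homeodomain proteins that act upstream of central Hox genes in the embryo.
Hoxa7: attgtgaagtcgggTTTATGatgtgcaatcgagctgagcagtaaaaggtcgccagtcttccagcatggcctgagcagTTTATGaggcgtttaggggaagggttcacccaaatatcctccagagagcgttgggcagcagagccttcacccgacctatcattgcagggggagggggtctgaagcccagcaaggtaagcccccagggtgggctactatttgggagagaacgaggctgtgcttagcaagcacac
Hoxa5: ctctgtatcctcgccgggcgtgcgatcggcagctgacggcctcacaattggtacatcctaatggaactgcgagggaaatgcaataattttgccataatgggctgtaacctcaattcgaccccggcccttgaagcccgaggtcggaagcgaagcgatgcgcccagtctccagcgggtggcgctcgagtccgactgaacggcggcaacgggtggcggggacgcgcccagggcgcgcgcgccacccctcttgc
Hoxa9: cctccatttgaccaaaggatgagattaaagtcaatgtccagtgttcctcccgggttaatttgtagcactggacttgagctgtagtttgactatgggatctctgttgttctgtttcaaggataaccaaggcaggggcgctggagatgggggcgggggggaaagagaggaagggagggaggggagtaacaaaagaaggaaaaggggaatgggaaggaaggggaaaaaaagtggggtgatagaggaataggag
Hoxa11: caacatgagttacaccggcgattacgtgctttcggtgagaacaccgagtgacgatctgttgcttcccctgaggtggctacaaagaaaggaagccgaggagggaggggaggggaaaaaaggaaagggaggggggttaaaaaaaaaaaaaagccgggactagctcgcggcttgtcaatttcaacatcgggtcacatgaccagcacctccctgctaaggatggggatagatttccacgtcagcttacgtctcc
The Hoxa7 window holds TTTATG at 2 places, from 236 to 231 and from 173 to 168 bases before the start, and no match lies in the other 3 windows. Hoxd3, which fell at P28 against P1, also has TTTATG, from 165 to 160 bases before its start. The Hoxa5 window has 28 CpG dinucleotides and 63.6% G or C, against 7 and 54.8% for Hoxa7, 3 and 49.6% for Hoxa9 and 13 and 52.0% for Hoxa11. Searched on both strands, TTTATG occurred in 10.8% of the 32851 windows in the table and in 3 of 21 windows of measured Hox genes. TGATNNAT, the joint Pbx and Hox element, occurred in 7.68% of all windows and in 3 of the 21, and TATAAA in 12.4% and in 2 of the 21. The 21 windows belong to 19 of the 33 measured genes, and their median CpG count was 13 beside 6 for all windows. A match is a run of letters only and was not tested as a binding site.

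Hoxa5, which patterns the neck and upper thorax, lung and diaphragm, fell at P28. Its values were 7.83, 7.73, 8.37 and 8.06 at P1, 7.97, 7.73, 8.07 and 7.49 at P12 and 7.24, 7.10 and 6.78 at P28. Every P28 array was below every younger array. The change was -0.95 ± 0.18 (SE) against P1 (adjusted p = 0.000803) and -0.77 ± 0.18 against P12 (adjusted p = 0.00444), a 1.94-fold and a 1.71-fold decrease. The other probe set of Hoxa5 gave another pattern, with 6.39, 6.22, 6.21 and 6.49 at P1, 6.61, 6.68, 7.12 and 7.16 at P12 and 6.63, 6.60 and 6.31 at P28. There the signal rose by 0.57 at P12 and was 0.18 higher at P28 than at P1 (adjusted p = 0.0378 and 0.401), so the fall of Hoxa5 rests on the brighter probe set, which is of the _x_at type (its probes may match related transcripts too).

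Hoxa7, a central Hox gene, was at 7.09, 7.11, 7.42 and 7.15 at P1, 7.54, 7.38, 7.58 and 7.61 at P12 and 7.63, 7.43 and 7.63 at P28. The P28 arrays were just above all P1 arrays and within the P12 range or close to it. The rise of 0.37 ± 0.13 at P28 against P1 (adjusted p = 0.0323) was not kept in 8 of 21 alternatives, 5 of them leaving out a single array (P1 replicates 1, 2 or 4, or P28 replicates 1 or 3, 0.34 to 0.36). With the Gapdh 3′ to 5′ difference as a covariate it was 0.21.

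Hoxa9, which acts in the limb and in blood stem cells, was at 6.98, 7.26, 7.52 and 7.38 at P1, 7.02, 7.10, 7.01 and 6.89 at P12 and 6.61, 6.80 and 6.67 at P28. The P28 arrays were below all others. The fall against P1 was -0.59 ± 0.14 (adjusted p = 0.00347), and the change against P12 of -0.31 did not pass (adjusted p = 0.0993). Its dimmer probe set changed by 0.22 against P1 (adjusted p = 0.498), and the mean of both probe sets gave -0.18, which did not pass.

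Hoxa4 and Hoxa11 were dim and fell. Hoxa4 was at 4.73, 5.08, 4.68 and 4.73 at P1, 5.14, 4.85, 5.03 and 4.89 at P12 and 3.85, 4.35 and 4.16 at P28, with no overlap between P28 and the younger ages. It changed by -0.86 ± 0.15 against P12 (adjusted p = 0.000495) and by -0.69 ± 0.15 against P1 (adjusted p = 0.00225). Hoxa11, a limb and kidney gene, was at 5.20, 4.95, 4.98 and 5.25 at P1, 4.94, 4.98, 5.09 and 4.76 at P12 and 4.51, 4.26 and 4.69 at P28. Here too the P28 arrays were the lowest. Its fall was -0.61 ± 0.14 against P1 (adjusted p = 0.00329) and -0.46 ± 0.14 against P12 (adjusted p = 0.0218), of which the second did not pass without P12 replicate 3 (-0.41), P28 replicate 1 (-0.47) or P28 replicate 2 (-0.34). Because both probe sets stayed below the array median throughout, these are changes in weak signals.

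The remaining Hoxa genes did not pass. Hoxa3 was at 7.04 to 7.61 at P1, 6.90 to 7.64 at P12 and 6.51 to 7.30 at P28, a change of -0.41 against P1 (adjusted p = 0.132). All 3 of its other probe sets gave a change below 0 as well, and 2 of them fell, by -0.75 (adjusted p = 0.00367) and -0.49 (adjusted p = 0.014). Hoxa2 changed by -0.45 against P12 (adjusted p = 0.0501), and Hoxa10 and Hoxa13 by -0.06 to 0.08 in P28 against P1.

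In the Hoxb cluster, on chromosome 11, none of 9 genes rose and 4 fell at P28 against P1, with a median of -0.27. The all-gene shares were 20.1% higher and 16.4% lower. Hoxb5, a gene of the neck and shoulder level, had the largest decrease of the 33 genes, at P28 against P12. Its values were 6.13, 6.25, 5.48 and 5.60 at P1, 6.18, 6.67, 6.16 and 6.47 at P12 and 4.88, 5.05 and 5.17 at P28. At P1 array set 1 was above array set 2, and all P28 arrays were below all the others. The fall was -1.33 ± 0.19 against P12 (adjusted p = 0.000108), 2.52-fold, and -0.83 ± 0.19 against P1 (adjusted p = 0.00352), 1.78-fold. With the Gapdh covariate the second was -0.48 and did not pass. From P1 to P12 the change of 0.50 did not pass (adjusted p = 0.112). It was 0.24 within array set 1, which did not pass, and 0.77 within array set 2, which passed with 2 arrays against 2. With the Gapdh covariate it passed too.

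Hoxb4, known from blood stem cells and the cervical spine, was at 7.38, 6.77, 6.88 and 7.11 at P1, 6.49, 7.03, 7.02 and 6.97 at P12 and 6.42, 6.62 and 6.30 at P28. P28 lay below P1 but overlapped P12 through P12 replicate 1. It fell by -0.59 ± 0.17 against P1 (adjusted p = 0.0158), a call lost without P28 replicate 3 (-0.51). Hoxb3 was at 5.90, 6.08, 5.72 and 6.19 at P1, 6.03, 6.17, 5.90 and 5.47 at P12 and 5.49, 5.62 and 5.39 at P28. Its P28 arrays were below all P1 arrays and fell within the reach of P12 replicate 4. The fall was -0.47 ± 0.17 (adjusted p = 0.0392) and was lost in 8 of 21 alternatives, among them leaving out P1 replicate 2 (-0.44), P1 replicate 4 (-0.40) or any P28 array (-0.53 to -0.42), and the Gapdh covariate (-0.22). The second probe sets of Hoxb3 and Hoxb4 both gave -0.34, which did not pass.

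Hoxb9, dim, was at 5.13, 5.13, 5.04 and 5.22 at P1, 5.01, 5.02, 5.09 and 4.94 at P12 and 4.75, 4.96 and 4.63 at P28. The P28 values were below all P1 values, and 1 lay inside the P12 range. The fall of -0.35 ± 0.12 (adjusted p = 0.0339) did not pass in 11 of 20 alternatives, including those without P1 replicates 1, 2 or 4 or P28 replicates 1 or 3 (-0.43 to -0.27 over all arrays left out). Hoxb1, Hoxb2, Hoxb6, Hoxb7 and Hoxb13 changed by -0.27 to 0.43 between P1 and P28 and did not pass.

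In the Hoxc cluster, on chromosome 15, 2 of 7 genes rose and none fell at P28 against P1, and the median was 0.00. The all-gene shares were 20.1% higher and 16.4% lower. Hoxc10, which acts at lumbar level and in the hindlimb, had the largest change of the family. It was at 5.09, 4.56, 4.31 and 4.54 at P1, 5.86, 5.11, 4.85 and 5.32 at P12 and 6.79, 6.78 and 6.47 at P28. All P28 arrays were above all P12 arrays, and 3 of the 4 P12 arrays were above all P1 arrays. The gene was below the array median on every P1 array and above it on every P28 array. It rose by 2.05 ± 0.22 against P1 (adjusted p = 5e-06), 4.15-fold, and by 1.40 ± 0.22 against P12 (adjusted p = 0.000231), 2.63-fold. These calls held in all 21 alternatives, with 1.95 to 2.37 and 1.25 to 1.69. Over all 18193 genes Hoxc10 ranked 367th by increase in P28 against P1. From P1 to P12 the change of 0.66 ± 0.20 did not pass (adjusted p = 0.0713). It passed with the array set as a block over P1 and P12, with the replicate block over all ages and with the Gapdh covariate. It also passed without dim genes, without P1 replicate 1 and without P12 replicate 3. The replicate block over P1 and P12 alone, chosen after seeing the data, gave an adjusted p of 0.00809 and made 2 Hox genes higher in place of 1. Within array set 1 and within array set 2 the change of Hoxc10 was 0.66.

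Hoxc8, a thoracic gene, was the gene that rose at P12. Its values were 8.67, 8.95, 8.79 and 8.90 at P1, 9.63, 9.41, 9.11 and 9.20 at P12 and 8.82, 9.08 and 8.59 at P28. Every P12 array was above every P1 and P28 array, and P28 lay around P1. The rise was 0.51 ± 0.14 (adjusted p = 0.0476) and the following fall -0.51 ± 0.16 (adjusted p = 0.0215), leaving 0.00 between P1 and P28. Within array set 1 the rise was 0.71 and within array set 2 0.31, neither of which passed with 2 arrays against 2. The rise did not pass without any single P1 array, P12 replicates 1, 2 or 4 or P28 replicate 1 (0.41 to 0.59 over all arrays left out), nor after quantile normalization (0.36). The fall was lost without P12 replicate 1 (-0.41), P12 replicate 2 (-0.48), P28 replicate 1 (-0.51) or P28 replicate 3 (-0.39) and with the Gapdh covariate (-0.32).

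Hoxc9, the neighbour of Hoxc8 and Hoxc10, was at 7.50, 7.60, 7.35 and 7.29 at P1, 7.63, 7.71, 7.54 and 7.63 at P12 and 7.74, 7.84 and 7.84 at P28. P28 lay above all younger arrays. The rise against P1 was small, 0.37 ± 0.12 (adjusted p = 0.0243), and did not pass without P1 replicate 3 (0.34), P1 replicate 4 (0.32), P28 replicate 2 (0.36) or P28 replicate 3 (0.35), nor after quantile normalization (0.19). The Hoxc9 step of 0.18 from P12 to P28 did not pass (adjusted p = 0.276). By their means Hoxc8 was highest at P12, and Hoxc9 and Hoxc10 at P28. Differences between these 3 neighbouring genes were not tested.

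Hoxc4 and Hoxc6, from the low-numbered end of the cluster, had lower means at P28 that did not pass. Hoxc4 was at 8.68, 8.78, 7.98 and 8.26 at P1, 8.64, 8.81, 8.41 and 8.20 at P12 and 8.29, 8.02 and 7.47 at P28. The ages overlapped, and array set 1 was above array set 2 at P1. The change was -0.50 against P1 (adjusted p = 0.0967) and -0.59 against P12 (adjusted p = 0.0586). Hoxc6 was at 6.96, 7.25, 6.35 and 5.99 at P1, 6.72, 6.69, 6.66 and 6.26 at P12 and 5.34, 6.64 and 5.46 at P28. A single P28 array, replicate 2, lay with the younger ages. The change was -0.82 ± 0.31 against P1 (adjusted p = 0.0508), and without that array it was -1.24 (adjusted p = 0.00371). Another probe set of Hoxc6 fell by -0.77 (adjusted p = 0.0256), and the remaining one changed by -0.29 and did not pass (adjusted p = 0.149). Hoxc5 changed by 0.23 and Hoxc13 by -0.30 and neither passed, although another probe set of Hoxc5 rose by 0.65 (adjusted p = 0.00285). The remaining Hoxc5 probe set changed by 0.08 and did not pass (adjusted p = 0.814).

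In the Hoxd cluster, on chromosome 2, 1 of 8 genes fell at P28 against P1 and none rose, with a median of -0.13. The all-gene shares were 16.4% lower and 20.1% higher. Hoxd3, dim, was at 4.42, 4.27, 4.80 and 4.59 at P1, 4.15, 4.12, 4.22 and 4.26 at P12 and 3.85, 3.92 and 3.77 at P28. The ages formed a descending series with no overlap. Its fall was -0.67 ± 0.13 against P1 (adjusted p = 0.00119), and the steps of -0.33 and -0.34 did not pass on their own (adjusted p = 0.133 and 0.0674). The levels at P28 were near those of the brightest bacterial control, 3.54 to 3.73.

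Hoxd8 and Hoxd9, the brightest probe sets of the cluster, did not pass. Hoxd8 was at 7.81, 8.40, 8.34 and 8.27 at P1, 8.81, 8.72, 8.41 and 8.55 at P12 and 8.05, 8.33 and 8.45 at P28. All P12 values were above all P1 values, as for Hoxc8, its paralog. The change of 0.42 at P12 did not pass (adjusted p = 0.116), while its second probe set rose by 0.63 (adjusted p = 0.0317). Hoxd9 was at 6.41, 6.35, 6.39 and 6.54 at P1, 6.94, 6.17, 6.26 and 6.09 at P12 and 5.96, 6.81 and 6.57 at P28, with overlapping ages and changes of -0.05 to 0.08. The limb and tail genes Hoxd10, Hoxd11, Hoxd12 and Hoxd13 and the head-end gene Hoxd1 were dim, with changes of -0.34 to 0.42 over the 3 comparisons and no call.

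**Figure D2:**
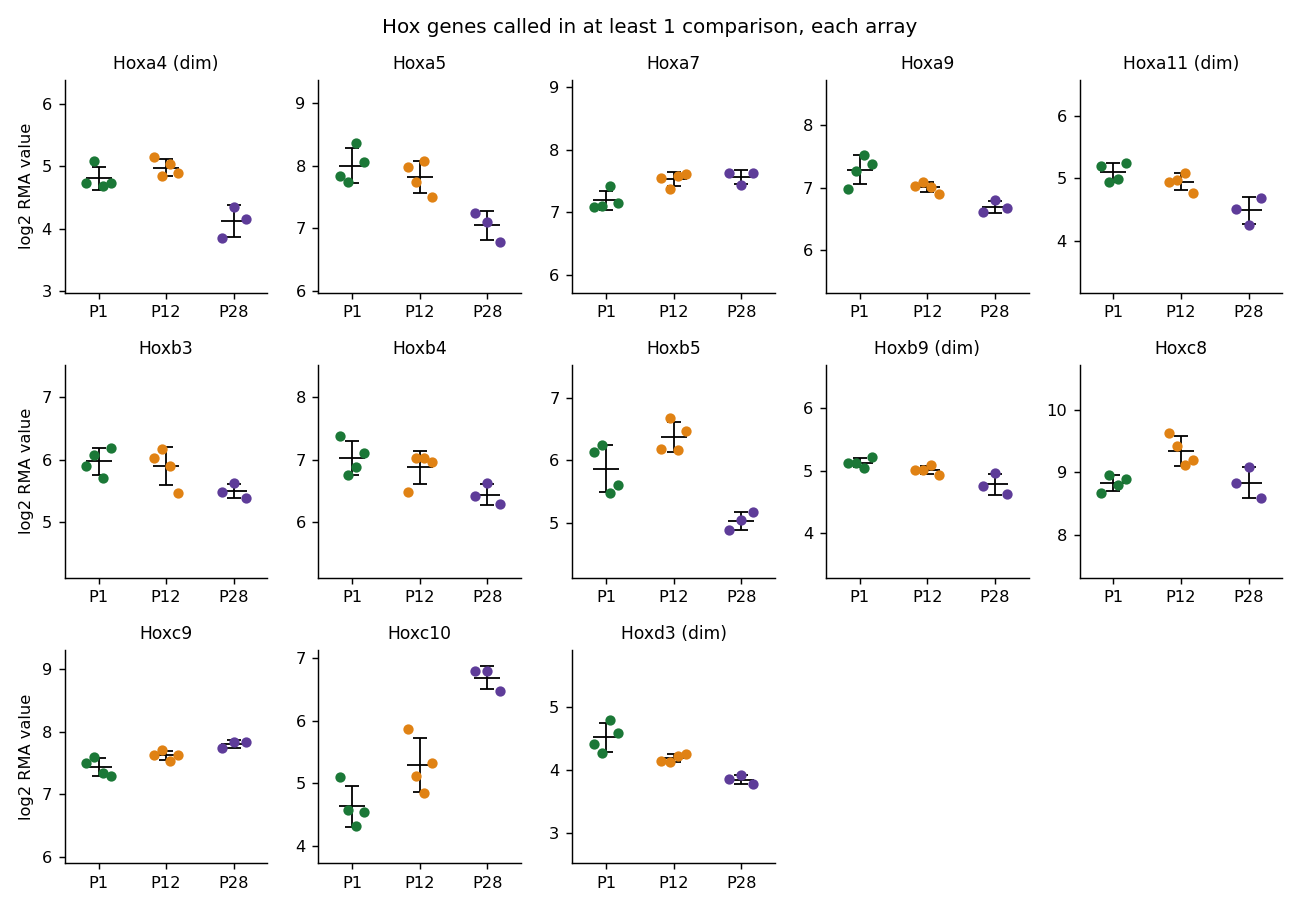
Log2 signal on each array (points) for the 13 Hox genes with an adjusted p under 0.05 in at least 1 comparison, by age; long bars are means and whiskers are SD (n = 4, 4 and 3). The P28 points stand clear of both younger ages in opposite directions for Hoxc10 (6.47 to 6.79) and Hoxb5 (4.88 to 5.17), and the P12 points are the highest for Hoxc8 (9.11 to 9.63).

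By position, the 10 genes of paralog groups 1 to 4 had a median change of -0.44 at P28 against P1, with 4 lower and none higher, and 9 of the 10 changes were below 0. Over all genes 16.4% fell, 20.1% rose and 52.0% of changes were below 0 (63.8% among genes that were not above the median on at least 3 arrays). Groups 5 to 8 had a median of 0.00, with 1 of 9 higher and 2 lower. Groups 9 to 13 had a median of -0.04, with 2 of 14 higher and 3 lower. Across the 33 genes the Spearman rank correlation of the P28 against P1 change with paralog number was 0.24, and across the 15 genes above the median on at least 3 arrays 0.46. At P28 against P12 it was 0.36 and 0.52, and at P12 against P1 -0.11 and 0.41. The genes share arrays, clusters and in part transcripts, so these are descriptions with no test.

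Of the number 3 paralogs at P28 against P1, Hoxb3 and Hoxd3 fell and Hoxa3 changed by -0.41. Of the number 4 paralogs, Hoxa4 and Hoxb4 fell and Hoxc4 changed by -0.50. Of the number 5 paralogs, Hoxa5 and Hoxb5 fell and Hoxc5 changed by 0.23. Of the number 9 paralogs, Hoxa9 and Hoxb9 fell, Hoxc9 rose and Hoxd9 changed by 0.03. Hoxc10 rose, while Hoxa10 and Hoxd10 were dim and changed by 0.08 and -0.03. Differences between paralogs were not tested.

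Of the 33 genes 11 had more than 1 probe set. At P28 against P1, no gene had probe sets called in opposite directions. The sign was shared by all probe sets for Hoxa3, Hoxb3, Hoxb4, Hoxc5, Hoxc6 and Hoxd8 and split for Hoxa4, Hoxa5, Hoxa9, Hoxa10 and Hoxd13. For Hoxa4 the second probe set, at a mean of 3.54, was at the level of the bacterial controls and changed by 0.03. For the other 22 genes, Hoxc10, Hoxb5, Hoxc8, Hoxa7, Hoxa11, Hoxb9, Hoxc9 and Hoxd3 among them, a single probe set was the only reading.

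**Figure D3:**
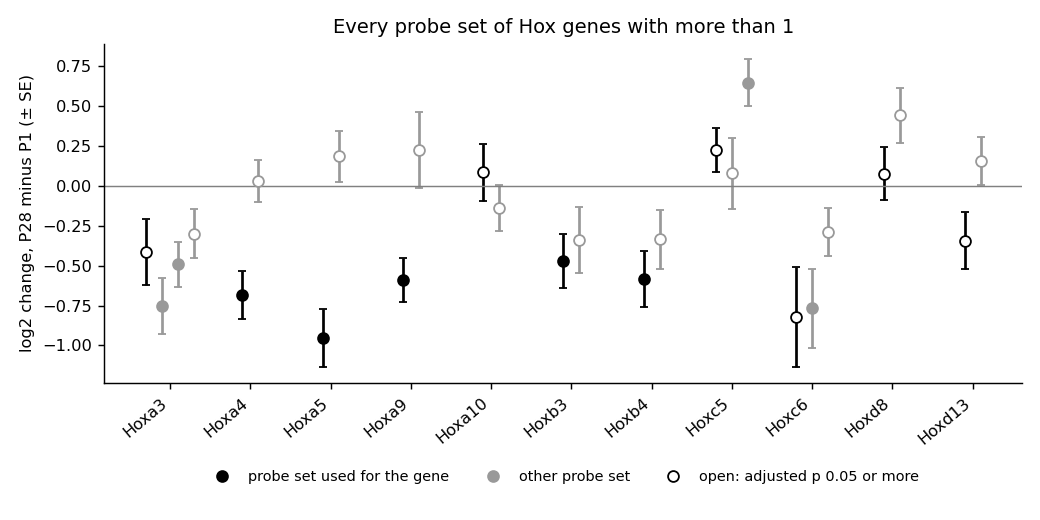
Log2 change at P28 against P1 with its standard error for every probe set of the 11 Hox genes that have more than 1. Filled points passed an adjusted p of 0.05 over all probe sets and black marks the probe set used for the gene; Hoxa5 (-0.95 and 0.18) and Hoxa9 (-0.59 and 0.22) show the widest splits, and all 4 probe sets of Hoxa3 lie below 0.

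Hox proteins bind DNA with Pbx, Meis and Pknox (Prep) homeodomain partners, of which 8 of 9 were measured. None passed from P1 to P12, 4 fell at P28 against P12, and 4 fell and 1 rose at P28 against P1. Over all genes 15.7% fell at P28 against P12, and 16.4% fell and 20.1% rose at P28 against P1. Pbx3 was at 8.01, 8.24, 8.10 and 7.95 at P1, 8.56, 8.45, 7.90 and 7.91 at P12 and 6.46, 6.50 and 7.07 at P28. Meis2 was at 9.33, 9.16, 8.96 and 8.99, then 9.03, 9.05, 8.61 and 8.59, then 8.13, 7.61 and 7.29. For both genes every P28 array was below every younger one. Pbx3 fell by -1.40 ± 0.19 against P1 (adjusted p = 5.22e-05) and Meis2 by -1.44 ± 0.19 (adjusted p = 3.84e-05). Without _x_at and _s_at probe sets the Meis2 change was -0.55, and that against P12 was -0.23 and did not pass. Meis1 fell by -1.07 ± 0.20 (adjusted p = 0.000638), from 7.40 to 8.14 at P1 to 6.49 to 6.94 at P28. The change of Pbx2, -0.60 ± 0.20 (adjusted p = 0.0319), and the rise of Pknox1, 0.48 ± 0.16 (adjusted p = 0.0296), were each lost in 6 of 21 alternatives. For Pbx2 these included leaving out P1 replicate 2 or P28 replicates 1 or 3, and for Pknox1 leaving out P1 replicates 3 or 4 or P28 replicates 2 or 3. Pbx4, Meis3 and Pknox2 did not pass in any comparison.

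**Figure D4:**
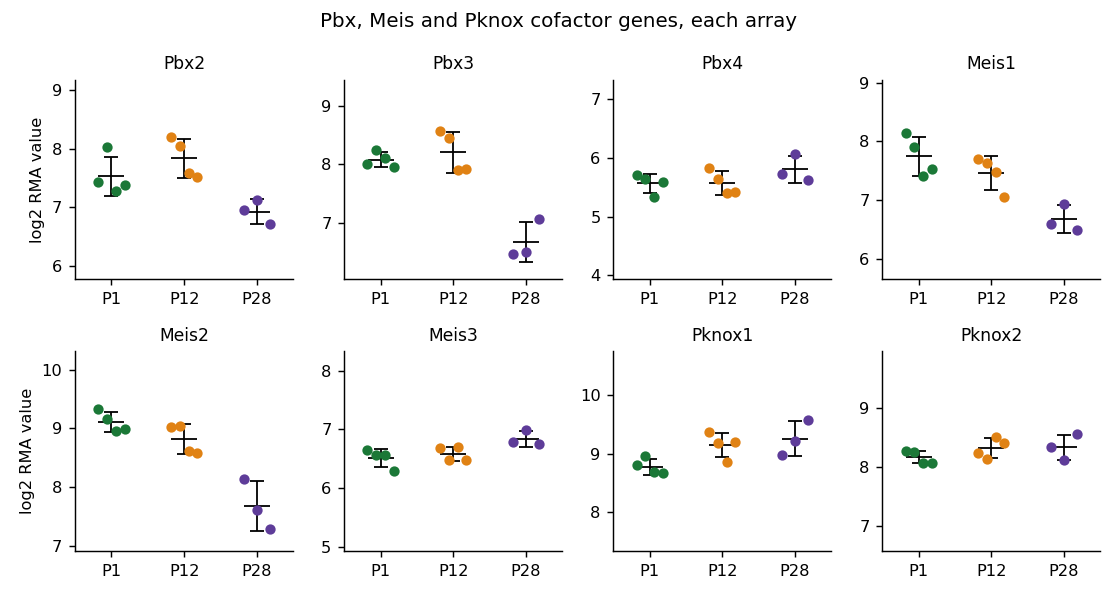
Log2 signal on each array (points) for the 8 measured Pbx, Meis and Pknox genes by age, with means (long bars) and SD (whiskers; n = 4, 4 and 3). Pbx3 (6.46 to 7.07 at P28), Meis1 (6.49 to 6.94) and Meis2 (7.29 to 8.13) lie below all P1 and P12 arrays at P28.

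Signals that set Hox expression in the embryo include retinoic acid, with its synthesis, binding and receptor genes, and Cdx, Fgf and Gdf11. The list of 24 genes also held Mstn and the zinc finger genes Tshz1, Tshz2 and Tshz3, and 21 of the 24 were measured. From P1 to P12 1 rose, beside 4.53% of all genes. At P28 against P12 7 rose, Tshz2 among them, and 2 fell, Tshz3 among them, beside 15.7% of all genes each way. At P28 against P1 6 rose, Tshz2 among them, and 1 fell, beside 20.1% higher and 16.4% lower over all genes. Aldh1a1, an enzyme of retinoic acid synthesis, rose by 1.44 ± 0.29 at P12 (adjusted p = 0.00978) and by 3.94 ± 0.32 at P28 against P1 (adjusted p = 3.2e-07). The retinoic acid receptor gene Rarg rose by 1.78 ± 0.20 at P28 against P1, and Crabp1, which codes for a cytoplasmic retinoic acid-binding protein, fell by -1.80 ± 0.16. Tshz2, a zinc finger gene of trunk identity, rose by 1.65 ± 0.18. Of the 21 genes 7 stayed below the array median on all 11 arrays, among them Cdx1, Cdx2, Cdx4, Gdf11 and Fgf8.

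Polycomb proteins hold Hox genes silent and Trithorax proteins keep them active. Of 26 measured Polycomb genes 4 rose and 12 fell at P28 against P12, beside 15.7% of all genes in each direction. At P28 against P1 3 rose and 9 fell, where all-gene shares were 20.1% higher and 16.4% lower. Ezh2, the histone H3 methyltransferase, fell by -1.38 ± 0.19 against P12 and by -1.08 ± 0.19 against P1, and Suz12, its partner, by -0.89 ± 0.17 against P12. Among the Cbx reader genes, Cbx2 fell by -1.08 ± 0.16 against P1 and Cbx6 by -1.20 ± 0.16, while Cbx7 rose by 1.10 ± 0.22 against P12. The calls of Cbx6 (-0.56) and Cbx7 (0.63) were lost without _x_at and _s_at probe sets. Jarid2 alone of the 26 rose at P12, by 0.50 ± 0.12 (adjusted p = 0.0217), beside 4.53% of all genes higher. Its call was lost in 7 of 25 alternatives, among them leaving out P1 replicates 3 or 4 or P12 replicates 1 or 2. Of 14 Trithorax and MLL genes none passed from P1 to P12, 4 fell at P28 against P12, and 1 rose and 4 fell at P28 against P1, beside 15.7% of all genes lower in the first P28 comparison and 20.1% higher and 16.4% lower in the other. Kmt2d, a methyltransferase, fell by -1.09 ± 0.21 and Kdm6a, a demethylase that removes the Polycomb mark, rose by 0.66 ± 0.17, both against P1.

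Genes next to the clusters were read as a local comparison, 5 protein-coding genes on each side of each cluster, 40 in all. At P28 against P1 9 rose and 4 fell, beside 20.1% and 16.4% of all genes, and their median change was 0.05. Both Evx genes, homeobox genes at the high-numbered ends of Hoxa and Hoxd, did not pass (-0.27 and -0.38). Beside Hoxa, Snx10 rose by 1.22 ± 0.17 and Creb5 by 1.56 ± 0.19 at P28 against P12. Beside Hoxc4, the DNA repair gene Smug1 fell by -1.14 ± 0.18 against P1 and Nfe2, a transcription factor gene of blood cells, rose by 1.65 ± 0.30. The antisense genes Hoxa11os, Hoxb5os and Hoxd3os1 did not pass in any comparison, with changes of 0.21, -0.32 and 0.03 at P28 against P1.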

How the data were processed

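RNA of sorted cells from 11 samples was hybridised to Affymetrix mouse 3′ expression arrays. The authors deposited log2 values per probe set, and the submitters' processing notes name Affymetrix Expression Console, RMA and affy. Of 45101 probe sets, 34945 with 1 gene symbol were used, 932 had several and 9211 none. For each of 18193 genes the probe set of highest mean was used. Group means were fitted with limma 3.58.1 in R 4.3.3 (lmFit, eBayes, two-sided, 8 residual and 6.62 prior degrees of freedom) over all 11 arrays, with Benjamini-Hochberg adjustment. Data were simulated with 18193 genes. Changes of 1 (log2) were recovered in 88.1% for P12 against P1, 83.6% for P28 against P12 and 85.1% for P28 against P1. Changes of 0.5 were recovered in 14.9%, 10.4% and 7.46%. Only 66 or 67 genes were changed at each size, far fewer than passed in the real comparisons. The adjusted p is stricter where few genes change, so these rates do not give the chance of a call in the real data. Precision is limited by how many arrays there are, and p-values measure only the spread between these samples.

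Members and lists were chosen with earlier results of these data known. Hox genes that passed, and the 2 brightest of each cluster, are given on every array. Of other lists up to 4 that passed per comparison, by size, may be named. Same-numbered P1 and P12 arrays deviated together (r of deviations from the age means 0.15, 0.27, 0.34 and 0.18). Differently numbered arrays of one array set did so too (0.14 to 0.25), and arrays of different sets did not (-0.31 to -0.10). The values within sets show the array sets and do not settle pairing by replicate number. Deviations within an age cancel out, so positive values within sets bring negative ones between sets, which are not separate evidence. Same-numbered P28 arrays did not deviate with younger ones (-0.09 to 0.13). The main fit had no block. With array set or replicate number as a block over P1 and P12, 2 Hox genes were higher, beside 8.42% and 7.16% of all genes. Alternatives changed the scaling, the probe sets, the filter on dim genes, the fit, blocks and the Gapdh covariate, and left out each array.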

Additional observations from a re-analysis of the deposited data

Results flagged for a closer look

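Among the 66 groups of 4 arrays (33 Hox genes at P1 and at P12), 4 held an array far from the others by Dixon's criterion, where chance gives about 1 in 20. Hoxa4 on P1 replicate 2 was at 5.08, with the others at 4.68 to 4.73. Hoxb2 on P12 replicate 2 was at 4.90, with the others at 5.49 to 5.56. Hoxb4 on P12 replicate 1 was at 6.49, with the others at 6.97 to 7.03. Hoxc6 on P12 replicate 4 was at 6.26, with the others at 6.66 to 6.72.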

How the results depend on the processing

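Both P28 changes of Hoxc10 and of Hoxa4, that of Hoxb5 against P12, and those of Hoxa11 and Hoxd3 against P1 passed in all 20 or 21 alternatives run. The number of Hox genes higher at P12 against P1, 1, was 0 after quantile normalization, within array set 1 and with every probe set tested, and 2 with the mean of probe sets, without _x_at and _s_at probe sets, without dim genes and with the array set as a block. It was 3 with the Gapdh covariate and 0 to 2 with an array left out. The replicate block, in the fit over all ages and over P1 and P12 alone, made it 2, and made the number lower at P28 against P12 8 in place of 5, although P28 numbers do not pair. That number was also 8 with trend and robust and 4 to 7 with an array left out. The number higher at P28 against P1, 3, was 1 with trend and robust and 1 to 3 with an array left out. The number lower at P28 against P1, 9, was 6 to 10 with an array left out. It was 6 with the Gapdh covariate, where 9.48% of all genes were lower in place of 16.4%, and 6 of 15 tested without dim genes. With median centring it was 7, and after quantile normalization and with the replicate block 11. Hoxa5 reversed at P12 against P1 with the mean of probe sets (0.19) and without _x_at and _s_at (0.57), and at P28 against P1 without _x_at and _s_at (0.18), settings in which its other probe set enters. Within array set 1 Hoxa5 was 0.069 at P12 against P1, and Hoxc4 at P28 against P1 was 0.015 with the Gapdh covariate; the cause was not tested for either. The every-probe-set test and the block over P1 and P12 alone were chosen after seeing the data. Signal over background limits the 17 dim genes.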
